A study of Mus musculus with 6 samples.

Results

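The 8 genes described here are markers of the ductal and trunk epithelium of the pancreas, namely Spp1, Muc1, Cftr, Bicc1, Pkhd1, Prom1, Glis3 and Tspan8. The rule that picks them is a list of names and uses no measured value, but the list was drawn up with earlier results of these data known. All 8 were found among the 24062 genes counted. RNA was sequenced from cells of embryonic mouse dorsal pancreatic buds that had been sorted by fluorescence into epithelial and mesenchymal fractions and then pooled. There were 6 libraries, 1 per group. Both genotypes gave epithelium on both embryonic days, E12.5 and E14.5, and mesenchyme on E12.5 only. Controls were labelled mTmG and were compared with Pbx mutants, whose label includes mTmG+/-, Nkx2.5-Cre+/- and Pbx2+/-. The mTmG reporter, which both genotypes carry, turns cells from red to green where Cre has acted, and Cre from the Nkx2-5 locus acts where that locus is expressed. Nkx2-5 itself was read at 41.2 and 66.8 CPM in control and mutant mesenchyme and at 0 to 3.68 CPM in the 4 epithelial libraries.

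In the growing pancreas the epithelium forms a branched tree whose tips give rise to acinar cells and whose trunk gives rise to ducts and, through cells that leave it, to endocrine cells. Trunk cells depend on factors such as Sox9, carry a primary cilium on the side facing the lumen, and later form the ducts that line, seal and wet the passage for digestive juice. The 8 genes cover several of these roles: a transcription factor, an RNA-binding protein, a protein of the cilium, a chloride channel, surface proteins of the luminal membrane and a secreted glycoprotein.

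Levels are given as TMM-scaled CPM, that is, counts per library size after scaling that lets most genes match between libraries. The libraries held 14032569 to 20276045 reads on genes. Since every group is a single library, the differences lack a replicate check and no p-value is given. Each ratio of 2 libraries carries a 95% interval (exact, conditional binomial) that covers counting error alone, and not differences between animals or preparations. The interval also treats each read as a separate molecule. Measured genes are those with 5 CPM or more in either library of a pair. Such a gene is called higher or lower if it differed by 2-fold or more with an interval that left out equality. The samples' labels were checked on Pbx2, which stood at 89.9 and 56.0 CPM in control and mutant mesenchyme, at 54.5 and 49.7 CPM in E12.5 epithelium and at 34.0 and 47.3 CPM in E14.5 epithelium. Because Pbx2 was not lower in the E14.5 epithelium of the mutant and nearly level at E12.5, the epithelial libraries are called labelled mutant. Pbx2 stood highest in control mesenchyme, and the E14.5 epithelial libraries differ in mesenchymal genes (below), so the check cannot decide the label there.

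The fractions carried the markers of their names, with limits. Of 25 general epithelial genes, 24 reached 5 CPM in each epithelial library, and their summed level was 4181 and 3593 CPM at E12.5 and 7665 and 4022 CPM at E14.5 (control and labelled mutant), against 70.7 and 50.8 CPM in mesenchyme. General mesenchymal genes were read in every library. Their sum over 25 genes was 5156 and 5713 CPM in E12.5 epithelium, 5525 CPM in the E14.5 control epithelium and 11358 CPM in the E14.5 epithelium labelled mutant, beside 11052 and 9709 CPM in mesenchyme, and none of these 25 genes was at 0 in any library. The E14.5 epithelium labelled mutant was level with the mesenchyme libraries, which are of E12.5, by this sum. Collagens carried much of it, with Col3a1 at 3717 CPM and Col1a1 at 2383 CPM in that library. Single genes differed: Pdgfrb stood at 91.8 CPM there against 301 and 221 CPM in control and mutant mesenchyme, and Lum at 287 CPM against 13.4 and 10.2 CPM. The part of mesenchymal RNA in the results below was not tested. In such bulk samples fewer cells of a type and less RNA per cell cannot be told apart. For the epithelial comparisons the main ratios of the 8 genes, and the medians and calls of the lists at E14.5, are therefore also given relative to the median ratio of the general epithelial genes, which was -0.17 at E12.5 and -0.93 at E14.5 on the log2 scale.

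**Figure D1:**
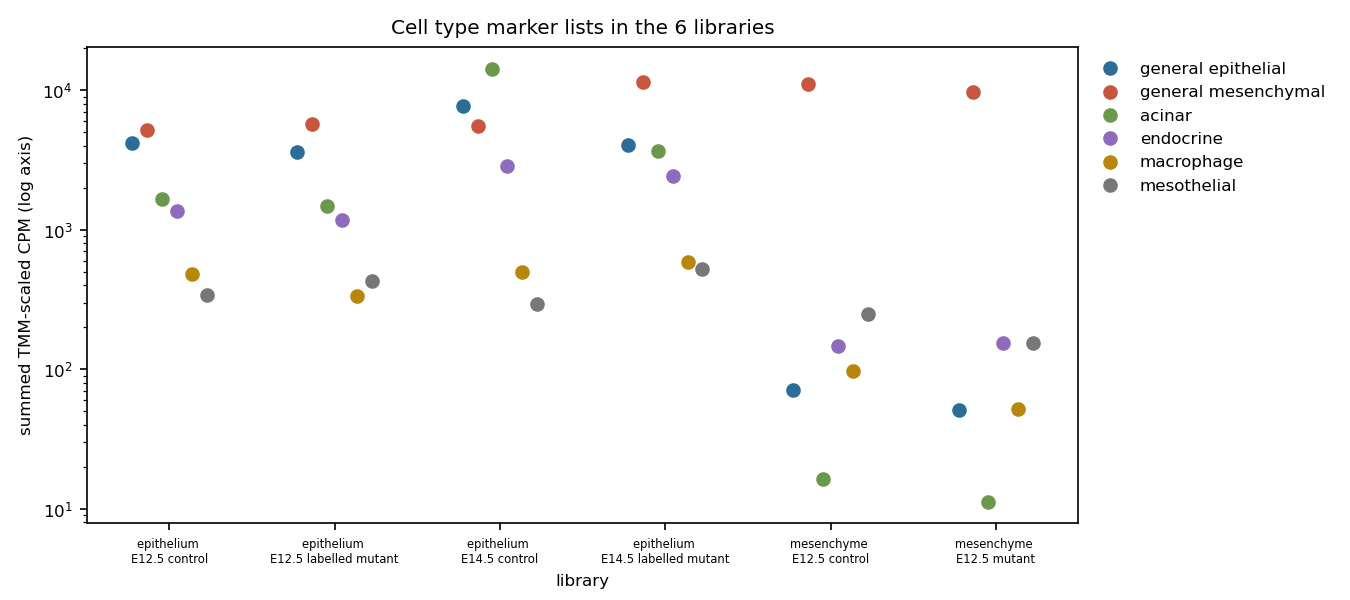
Summed TMM-scaled CPM (vertical, log axis) of 6 marker lists in each of the 6 libraries, 1 point per list and library. The mesenchymal sum of the E14.5 epithelium labelled mutant, 11358 CPM, lies level with the E12.5 mesenchyme libraries, and the acinar sum is highest in the E14.5 control epithelium at 14259 CPM.

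Spp1 and Muc1 separated the epithelium from the mesenchyme most widely, Pkhd1 and Glis3 did so at lower levels, and Bicc1 and Prom1 were abundant in both fractions. Cftr was all but absent. In E14.5 epithelium, 2 of 7 measured members (Muc1 and Glis3) were called lower in the library labelled mutant and 1 (Tspan8) higher. Of all measured genes 6.40% were called lower there and 9.64% higher. Glis3 and Tspan8 were each measured only through the library in which they were high. Spp1, Bicc1 and Prom1 were lower in the library labelled mutant by about as much as epithelial genes in general. In E12.5 epithelium, Glis3 alone of 6 measured members was called lower, beside 3.21% of all measured genes. The plot of levels shows all 8 genes in all 6 libraries.

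**Figure D2:**
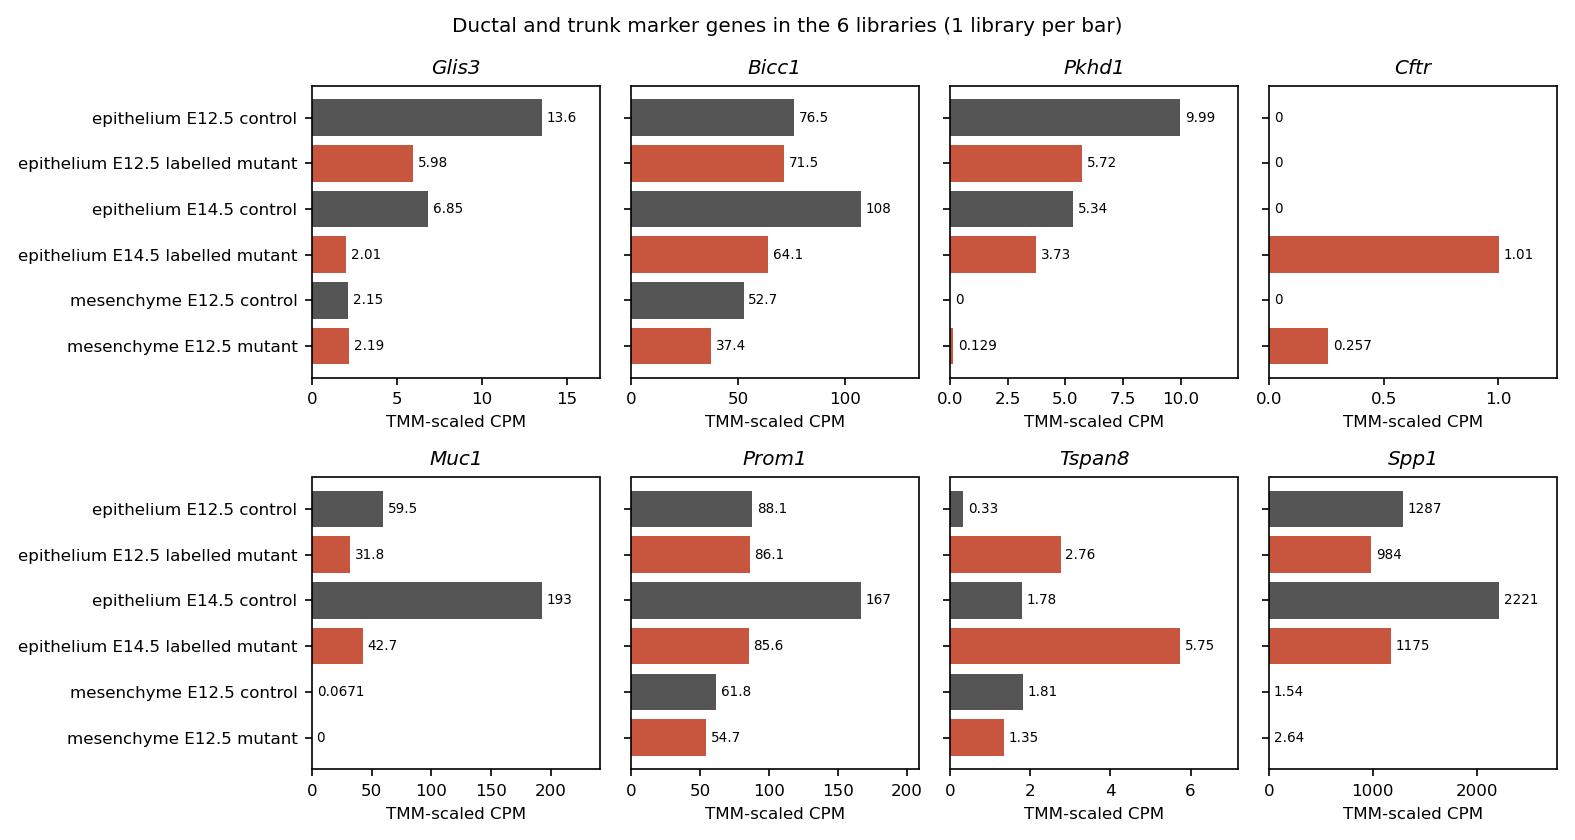
TMM-scaled CPM (horizontal, linear from 0, own scale per panel) of the 8 ductal and trunk markers, with 1 bar per library, grey for control and red for mutant or labelled mutant. Spp1 reaches 2221 CPM in the E14.5 control epithelium, Cftr does not pass 1.01 CPM in any library, and Bicc1 and Prom1 have bars of similar order in epithelium and mesenchyme.

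Glis3 encodes a Krüppel-like zinc finger factor that is needed for ducts to keep their cilia and for endocrine cells to form, and whose loss causes neonatal diabetes with kidney cysts. The gene lies on chromosome 19 from 28258851 to 28680077, on the minus strand (mm10, as for all positions here). In epithelium it stood at 13.6 CPM (control) and 5.98 CPM (labelled mutant) at E12.5, and at 6.85 and 2.01 CPM at E14.5, while the mesenchyme libraries held 2.15 and 2.19 CPM. The E12.5 control epithelium was the highest of the 6 libraries, and the E14.5 epithelium labelled mutant was as low as mesenchyme. The library labelled mutant was 2.27-fold lower at E12.5 (interval 1.79 to 2.90) and 3.41-fold lower at E14.5 (2.22 to 5.38), where Glis3 passed the 5 CPM minimum only through the control. Set against the median of epithelial genes, Glis3 was 2.02-fold and 1.79-fold lower. The E14.5 log2 ratio was below that at E12.5 by an amount whose counting interval included 0 (difference -0.59, from -1.28 to 0.11). In mesenchyme the genotypes gave a log2 ratio of 0.03 (from -0.71 to 0.77), at 32 and 34 reads and below the 5 CPM minimum.

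Bicc1 encodes an RNA-binding protein that controls mRNAs of cyst genes such as Pkd2. The gene is on chromosome 10 from 70922832 to 71159700, minus strand. It stood at 76.5 CPM (control) and 71.5 CPM (labelled mutant) in E12.5 epithelium, at 108 and 64.1 CPM in E14.5 epithelium, and at 52.7 and 37.4 CPM in control and mutant mesenchyme. No library lacked it, and the lowest was the mutant mesenchyme. The log2 genotype ratio was -0.10 (from -0.21 to 0.02) in E12.5 epithelium, -0.75 (from -0.87 to -0.63) in E14.5 epithelium and -0.50 (from -0.65 to -0.34) in mesenchyme, none of them past the 2-fold threshold. Relative to the general epithelial genes, the epithelial ratios were 0.07 and 0.18 on the log2 scale. Pkd2, the mRNA just named, was read at 152 and 116 CPM in E12.5 epithelium, 65.3 and 78.1 CPM in E14.5 epithelium and 121 and 99.2 CPM in mesenchyme.

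Pkhd1 encodes fibrocystin, a very large membrane protein of the primary cilium whose loss causes recessive polycystic disease of kidney and bile duct. It lies on chromosome 1 from 20057779 to 20618064, minus strand. It was read at 9.99 and 5.72 CPM in E12.5 epithelium (control and labelled mutant), at 5.34 and 3.73 CPM in E14.5 epithelium, with no read in control mesenchyme (which allows up to 0.201 CPM) and at 0.129 CPM, 2 reads, in mutant mesenchyme. The 4 epithelial values lay above both mesenchymal ones. The E12.5 library labelled mutant was 1.75-fold lower (1.35 to 2.27), short of the threshold, and at E14.5 the log2 ratio was -0.52 with an interval from -1.05 to 0.01. On the scale relative to epithelial genes the E14.5 log2 ratio was 0.41. Antisense transcripts overlap exons of 5 of the 8 genes, Pkhd1, Cftr, Bicc1, Prom1 and Tspan8. The authors' counting is not known to use strand, so reads from these genes and their antisense partners cannot be told apart. Only the partner of Pkhd1, 4930486I03Rik, has a row in the count tables, with 0 reads over the 6 libraries.

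Cftr encodes the chloride and bicarbonate channel of mature duct cells that is mutated in cystic fibrosis. It lies on chromosome 6 from 18170687 to 18322768, plus strand. No read fell on it in 4 of the 6 libraries, namely E12.5 epithelium of both genotypes, the E14.5 control epithelium and control mesenchyme, which allows at most 0.141 to 0.205 CPM there. Mutant mesenchyme gave 4 reads (0.257 CPM) and the E14.5 epithelium labelled mutant 14 reads (1.01 CPM), at least 4.89-fold above its control by the floor of 3 reads. All values were below the 5 CPM minimum, so none of them was called.

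Muc1 encodes the transmembrane mucin of the luminal surface. Its position is chromosome 3 from 89229057 to 89233381, plus strand. Its level in epithelium was 59.5 CPM (control) and 31.8 CPM (labelled mutant) at E12.5, and 193 and 42.7 CPM at E14.5. Mesenchyme gave 1 read in the control (0.0671 CPM) and none in the mutant (at most 0.193 CPM). The E14.5 control thus stood above the other 5 libraries, and the E14.5 epithelium labelled mutant lay below the E12.5 control. The library labelled mutant was 1.87-fold lower at E12.5 (1.68 to 2.08) and 4.52-fold lower at E14.5 (4.14 to 4.95), and relative to the general epithelial genes 1.67-fold and 2.38-fold lower. The genotype ratio was lower at E14.5 than at E12.5 by -1.27 on the log2 scale (counting interval -1.47 to -1.07), or by -0.51 on the relative scale. Acinar markers moved in the same direction: their sum over 12 genes was 1655 and 1488 CPM at E12.5 and 14259 and 3644 CPM at E14.5. Their median log2 genotype ratio at E14.5 was -1.85 (-0.92 on the relative scale). Of 9 measured genes 9 were called lower (4 on the relative scale), beside 6.40% of all genes (1.28% on the relative scale). The part of acinar cells in the Muc1 values was not tested.

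Muc1 had a pair of matches to the E-box CACCTG, the kind of site bound by basic helix-loop-helix factors, in the 250 bases before its RefSeq start. Of the 8 genes 7 had a RefSeq promoter window (GRCm38.p6), which was searched on both strands. The one nearer to the start is shown because CACCTG was the motif found in the most members, 3 of 7. It lies at chr3:89228946-89229031, plus strand, with the match in capitals at bases 70 to 65 before the start, overlapping a reverse match to the MEIS motif TGACAG:
Muc1: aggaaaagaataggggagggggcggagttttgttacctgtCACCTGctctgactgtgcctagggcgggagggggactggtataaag
Of all windows 17.2% hold CACCTG on either strand, and Spp1 and Prom1 also held it, so the match is common.

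Prom1 encodes prominin-1 (CD133), a cholesterol-binding protein of membrane protrusions on the luminal side that is found on many progenitor cells. Its position is chromosome 5 from 43993620 to 44102032, minus strand. Epithelium held 88.1 and 86.1 CPM at E12.5 and 167 and 85.6 CPM at E14.5, and mesenchyme 61.8 and 54.7 CPM, in the order control, then mutant or labelled mutant. The E14.5 control was high and the other 3 epithelial libraries lay within a narrow range of one another. The log2 genotype ratio was -0.03 at E12.5 (from -0.14 to 0.07) and -0.96 at E14.5 (from -1.07 to -0.86), short of the threshold but called lower with DESeq2 size factors, and relative to epithelial genes 0.13 and -0.04. In mesenchyme it was -0.18 (from -0.31 to -0.04).

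Tspan8 encodes a tetraspanin, a small membrane protein that organises other surface proteins and is found on gut and duct epithelia. It lies on chromosome 10 from 115816832 to 115849893, plus strand. Its counts were low: 7 and 42 reads in E12.5 epithelium (0.330 and 2.76 CPM), 26 and 80 reads in E14.5 epithelium (1.78 and 5.75 CPM), and 27 and 21 reads in mesenchyme (1.81 and 1.35 CPM). The E12.5 control epithelium was the lowest library and the E14.5 epithelium labelled mutant the highest, and mesenchyme lay between them. The E14.5 library labelled mutant was 3.23-fold higher than its control (2.05 to 5.23) and 6.13-fold higher on the relative scale. Tspan8 passed the 5 CPM minimum only through that library. At E12.5 the ratio was 8.37-fold (3.73 to 22.1) with both libraries under the minimum. Mesothelial markers, which label the lining of the bud, were summed at 343 and 429 CPM in E12.5 epithelium, 293 and 523 CPM in E14.5 epithelium and 249 and 155 CPM in mesenchyme, with Msln at 0 in 3 libraries, and their part was not tested.

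A stretch next to the RefSeq start of Tspan8 is shown because it was the only window of the 7 members with a match to the forkhead motif TGTTTAC (3.17% of all windows). That start, at 115817284, lies inside the gene as placed above, from 115816832, so the stretch is within the annotated gene. It lies at chr10:115817226-115817283, plus strand, with the match in capitals at bases 18 to 12 before the RefSeq start:
Tspan8: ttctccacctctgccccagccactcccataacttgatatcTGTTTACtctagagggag

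Spp1 encodes osteopontin, a secreted phosphoprotein of duct cells that macrophages and bone cells also make. The gene is on chromosome 5 from 104435118 to 104441050, plus strand. It was by far the most abundant of the 8 genes in epithelium, at 1287 and 984 CPM at E12.5 and 2221 and 1175 CPM at E14.5, while mesenchyme held 1.54 and 2.64 CPM (23 and 41 reads). Every epithelial library lay far above both mesenchyme libraries. The log2 genotype ratio was -0.39 (from -0.42 to -0.36) at E12.5 and -0.92 (from -0.95 to -0.89) at E14.5. Relative to the general epithelial genes the ratios were -0.22 and 0.01, so that at E14.5 Spp1 was lower by as much as the median of those genes. Macrophage markers summed over 15 genes to 478 and 332 CPM in E12.5 epithelium, 499 and 582 CPM in E14.5 epithelium and 96.8 and 52.0 CPM in mesenchyme; Csf1r was present in every library and Gpnmb was at 0 in 3. The part of macrophages in the Spp1 values was not tested.

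Per kilobase of exon, on which levels of different genes can be compared, Spp1 stood at 781 CPM per kb in the E12.5 control epithelium and was rank 11 of 22708 genes with a length, at 597 CPM per kb (rank 41) in the E12.5 library labelled mutant, and at 1348 and 713 CPM per kb (ranks 13 and 35) at E14.5. In control epithelium the order continued with Muc1 (26.5 CPM per kb at E12.5 and 86.0 at E14.5), Prom1 (18.1 and 34.3) and Bicc1 (13.8 and 19.4). In the library labelled mutant at E12.5 Prom1 (17.7 CPM per kb) stood above Muc1 (14.2), and the counting intervals of Muc1 and Bicc1 (12.9) met. At E14.5 the labelled mutant had Muc1 at 19.0 and Prom1 at 17.6 CPM per kb, whose intervals also met. Glis3, Pkhd1, Tspan8 and Cftr were at most 3.74 CPM per kb in any library. In mesenchyme Prom1 (12.7 and 11.2 CPM per kb) and Bicc1 (9.49 and 6.73) led. Spp1 (0.936 in control and 1.60 in mutant) lay below Tspan8 (1.18 and 0.880) in the control and above it in the mutant. Their counting intervals met in both.

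The first comparison asked which members set the fractions apart. In control embryos at E12.5, 4 of the 6 measured members were called lower in mesenchyme and 0 higher, where 13.6% of all 12066 measured genes were lower and 7.00% higher. Muc1 was 887-fold lower (interval 159 to 35059, on 1 read in mesenchyme), Spp1 834-fold (556 to 1316), Pkhd1 at least 49.6-fold (against the floor of 3 reads) and Glis3 6.32-fold lower (4.38 to 9.41). These 4 genes passed the 5 CPM minimum only through epithelium, where they were high. Bicc1 and Prom1 were 1.45-fold (1.33 to 1.58) and 1.43-fold lower (1.32 to 1.55), short of the threshold. Tspan8 was 5.49-fold higher in control mesenchyme (2.33 to 14.9), but was under the minimum in both libraries and so was not counted. The median over the 6 was -4.15 on the log2 scale against 0.03 over all measured genes and -6.79 over 24 general epithelial genes.

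The same 4 genes were called lower in mutant mesenchyme against the epithelium labelled mutant, beside 12.9% of 11956 genes lower and 5.42% higher. There Spp1 was 373-fold (275 to 520), Muc1 at least 165-fold (against the same floor), Pkhd1 44.4-fold (11.9 to 373) and Glis3 2.73-fold lower (1.83 to 4.18), with Prom1 at 1.58-fold and Bicc1 at 1.91-fold lower. The members that passed the 5 CPM minimum here did so through epithelium, except Bicc1 and Prom1, which passed in both fractions.

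The second comparison asked how the genotypes differed in epithelium. At E12.5, 1 of 6 measured members (Glis3) was called lower and 0 higher, beside 3.21% of 11991 genes called lower and 1.79% called higher. All 6 log2 ratios were below 0, with a median of -0.60 against 0.00 over all measured genes and -0.43 relative to the general epithelial genes. At E14.5, 2 of 7 were called lower and 1 higher, beside 6.40% of 12145 genes lower and 9.64% higher. The median was -0.92 against -0.03 over all genes, and 0.01 on the relative scale, where 1 member (Muc1) was past the threshold as lower and 1 (Tspan8) as higher, beside 1.28% of all genes lower and 41.9% higher. Glis3 and Tspan8 each passed the 5 CPM minimum only through the library in which they were high. The controls and labelled mutants of the stages are 4 separate libraries.

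**Figure D3:**
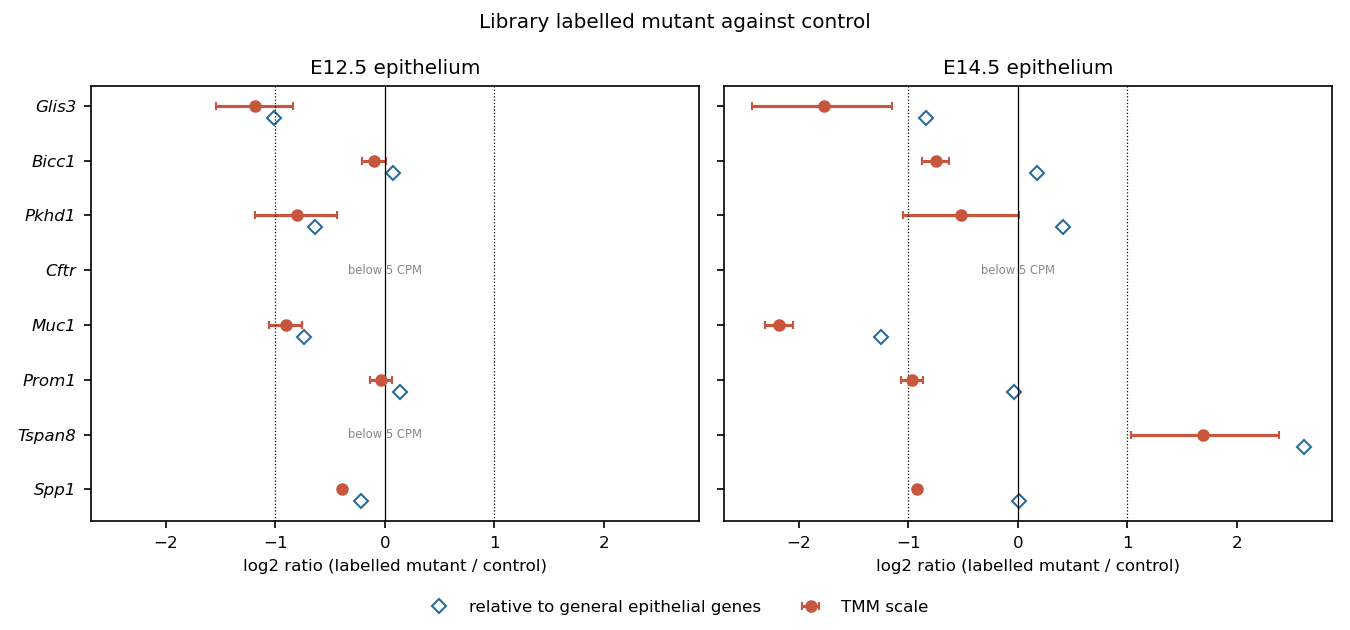
Log2 ratio of the library labelled mutant to its control (horizontal) for each member in E12.5 and E14.5 epithelium. Filled points with bars are TMM-scaled ratios with their 95% counting interval, open diamonds the ratio relative to the general epithelial genes, dotted lines 2-fold. At E14.5 Spp1, Prom1 and Bicc1 move to between -0.04 and 0.18 on the relative scale, whereas Muc1 stays at -1.25 and Tspan8 lies at 2.62.

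In mesenchyme only Bicc1 and Prom1 were measured between genotypes, and neither was called, beside 3.50% of 11188 genes called lower and 1.96% called higher. Bicc1 was 1.41-fold (1.27 to 1.57) and Prom1 1.13-fold lower (1.03 to 1.24) in the mutant. The genotype ratio of Bicc1 was higher in epithelium than in mesenchyme by 0.40 on the log2 scale (counting interval 0.21 to 0.59), and that of Glis3 lower by -1.21 (-1.98 to -0.43, on 32 and 34 reads in mesenchyme).

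The third comparison followed the epithelium from E12.5 to E14.5. It uses the same 4 libraries as the genotype comparisons, so it adds a view of the values and no new evidence. In controls Muc1 was called higher, 3.24-fold (3.03 to 3.47), 1 of 6 measured members, and 0 were called lower, beside 6.53% of 12136 genes higher and 11.2% lower. Prom1 (1.90-fold, 1.78 to 2.01), Spp1 (1.73-fold, 1.70 to 1.75) and Bicc1 (1.41-fold, 1.31 to 1.51) were higher but short of the threshold, while Glis3 (1.98-fold, 1.57 to 2.51) and Pkhd1 (1.87-fold, 1.44 to 2.45) were lower. General epithelial genes had a median log2 ratio of 0.57 in this comparison. Relative to them Muc1 was 2.18-fold higher, and Glis3 and Pkhd1 were 2.94-fold and 2.78-fold lower.

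In the libraries labelled mutant, Glis3 was called lower at E14.5 (2.97-fold, 1.93 to 4.72) and Tspan8 higher (2.08-fold, 1.42 to 3.10, or 1.94-fold on the relative scale), which is 1 each of 7 measured members beside 5.89% and 6.27% of 12167 genes. Both genes passed the 5 CPM minimum only through the library in which they were high. Muc1 was 1.34-fold higher (1.19 to 1.52), Spp1 1.19-fold higher (1.17 to 1.22), and the log2 ratio of Prom1 was -0.01 (from -0.12 to 0.11). The deposited table of the E12.5 control epithelium carries another date in its name than the other 5, and lacks the word combined that they carry. A difference in how that library was handled cannot be told apart from its group.

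**Figure D4:**
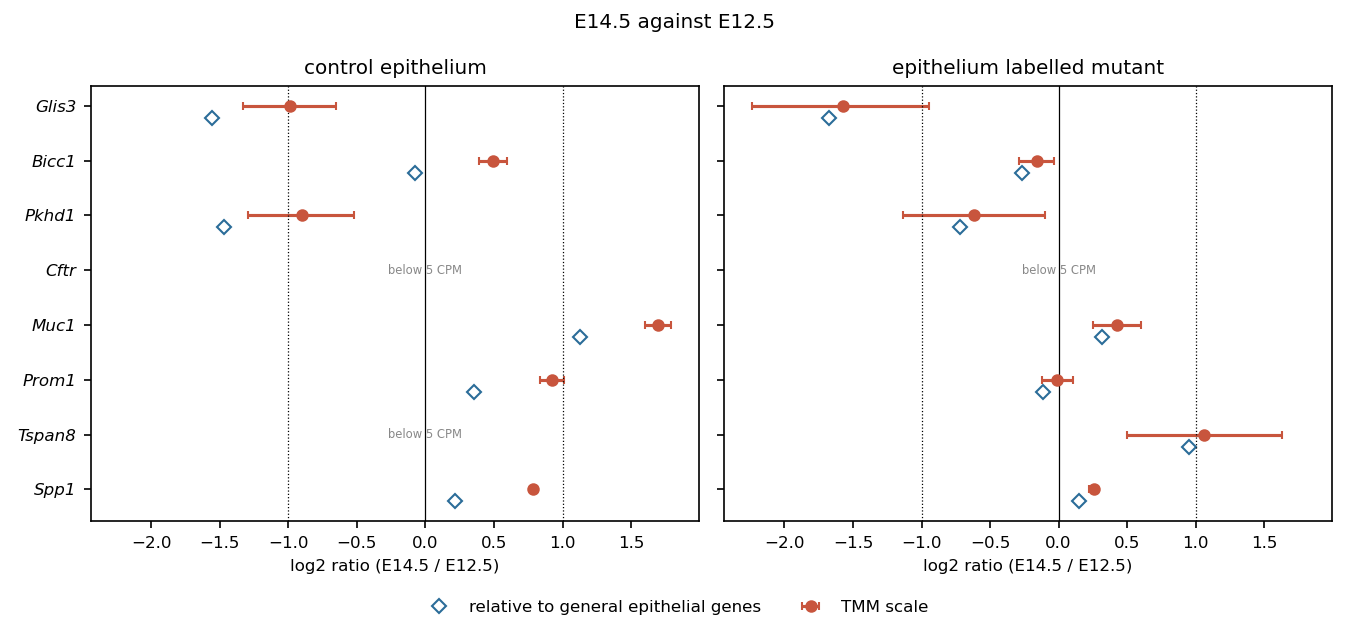
Log2 ratio of E14.5 to E12.5 (horizontal) for each member in control epithelium and in epithelium labelled mutant, drawn as in the genotype plot. In controls Muc1 lies at 1.70 and Glis3 at -0.99, while in the libraries labelled mutant Muc1 lies at 0.42 and Glis3 at -1.57.

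The wider trunk and duct programme was read from lists. Of 12 trunk transcription factors 11 were measured in both genotype comparisons of epithelium. At E12.5 none was called, beside 3.21% of all genes lower and 1.79% higher, and the median was -0.41. At E14.5, 6 were called lower and none higher, where 6.40% of all genes were lower and 9.64% higher. The median over the 11 was -1.07. On the relative scale it was -0.15, with 1 called lower (Nkx6-2) and 1 higher, beside 1.28% and 41.9% of all genes. On the TMM scale Nkx6-2 was 4.64-fold lower (3.26 to 6.77, measured only through the control), Onecut1 3.30-fold (2.91 to 3.76), Prox1 2.43-fold (2.15 to 2.76) and Pdx1 2.2-fold (2.02 to 2.40). Relative to epithelial genes these were 2.44-fold, 1.74-fold, 1.28-fold and 1.16-fold lower. Sox9 was also called lower (1.11-fold on the relative scale), at 656 and 493 CPM in E12.5 epithelium and 540 and 257 CPM in E14.5 epithelium. In mesenchyme Sox9 went the other way, at 16.1 and 66.6 CPM.

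Other ductal genes did not share one direction. Of 18, 16 were measured at E14.5, 3 of them called higher and 2 called lower (median -0.06), beside 9.64% and 6.40% of all genes. On the relative scale the median was 0.86, with 7 called higher and 0 lower, beside 41.9% and 1.28% of all genes. The carbonic anhydrase Car2, which supplies bicarbonate, was 4.62-fold higher in the library labelled mutant (3.49 to 6.21), the water channel Aqp5 4.46-fold (2.83 to 7.27) and the calcium-binding protein S100a6 2.98-fold (2.61 to 3.42). Car2 and Aqp5 passed the 5 CPM minimum only through the library labelled mutant. On the relative scale Car2, Aqp5 and S100a6 lay further above the control. The claudin Cldn10 was 3.18-fold lower (3 to 3.37) and the bicarbonate transporter Slc4a4 2.16-fold lower (1.76 to 2.65), or 1.67-fold and 1.14-fold on the relative scale. At E12.5, 1 of 14 measured genes was called in each direction, beside 3.21% of all genes lower and 1.79% higher. Slc4a4 was 2.53-fold lower (2.06 to 3.13). Car2 was 2.08-fold higher (1.46 to 2.98, at 2.59 and 5.39 CPM and so measured only through the library labelled mutant). The duct keratins Krt19 and Krt7 stood at 139 and 346 CPM in the E14.5 control and at 179 and 322 CPM in the labelled mutant. Neither keratin gene was called on the TMM scale. On the relative scale Krt19 was past the threshold as higher and Krt7 was not.

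Genes of the cyst and cilium list, which includes general cilium genes such as Kif3a and Ift88, were broadly expressed. All 16 were measured in epithelium. None was called at E12.5 (median -0.15), beside 3.21% of all genes lower and 1.79% higher. At E14.5, 1 was called in each direction (median 0.14), near the 6.40% and 9.64% of all genes. On the relative scale the E14.5 median was 1.07, with 10 called higher and 0 lower, beside 41.9% and 1.28% of all genes. Cys1, whose product cystin sits in the cilium, was 2.30-fold lower (1.74 to 3.06, or 1.21-fold on the relative scale). The ciliary kinase gene Nek8 was 2.51-fold higher (2.10 to 3.01, or 4.78-fold on the relative scale). From E12.5 to E14.5 in controls 13 of 16 had a ratio below 0 and 3 were called lower, among them Pkd2 (2.33-fold, 2.16 to 2.5), beside 11.2% of all genes. Between control fractions Cys1 alone was called lower in mesenchyme (5.89-fold, 3.81 to 9.52, measured only through epithelium), beside 13.6% of all genes. Most of this list thus did not separate the fractions as Pkhd1 did.

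**Figure D5:**
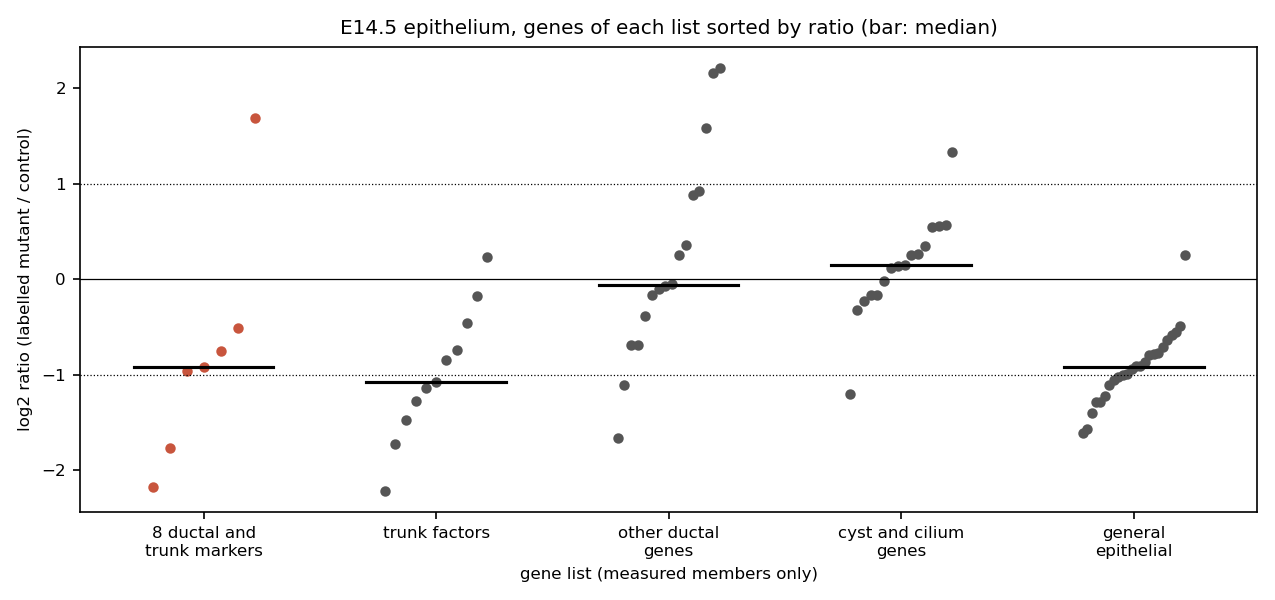
Log2 ratio of the E14.5 epithelium labelled mutant to its control (vertical) for the measured genes of 5 lists, each point a gene and each bar the median, dotted lines 2-fold. The medians of the 7 measured markers (-0.92), the trunk factors (-1.07) and the general epithelial genes (-0.93) lie below 0, though each of these lists has 1 gene above it. Among the markers that gene is Tspan8, at 1.69. The medians of the other ductal genes (-0.06) and of the cyst and cilium genes (0.14) lie around 0.

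Genes with the most similar profile were taken as those with the smallest root mean square distance in centred log2 CPM over the 6 libraries, among 11156 genes at 10 CPM or more in some library. These are descriptions over 6 libraries in which fraction makes the largest contrast. Bicc1 and Prom1 were close to each other (0.16). Bicc1 was nearest to Ccpg1 (0.08), Slc30a1 (0.10) and Txndc11 (0.11), and Prom1 to Lrrc59 (0.08), Fam120c (0.08) and Sec23b (0.09), all of which were read in both fractions. Spp1 was nearest to the claudin Cldn3 (0.37), to Ambp (0.41) and to Pyy (0.46), and Muc1 to the acinar factors Ptf1a (0.26) and Rbpjl (0.30) and to Cldn10 (0.35). Ptf1a stood at 51.3 and 45.3 CPM in E12.5 epithelium and at 189 and 56.8 CPM at E14.5, which follows Muc1 at the later stage more closely than at the earlier one. Pkhd1 was nearest to Epb4.1l4a (0.18), Col9a1 (0.20) and F5 (0.21), and Glis3 to Sipa1l3 (0.11), Notch1 (0.17) and Srgap3 (0.24). Notch1, the receptor that keeps trunk cells from endocrine fate, stood at 103 and 61.4 CPM in E12.5 epithelium, 54.2 and 23.6 CPM at E14.5, and 19.3 and 20.5 CPM in mesenchyme. Tspan8 was nearest to Fhl2 (0.30), the secreted Wnt regulator Sfrp2 (0.35) and S100a6 (0.43). Cftr had no read in 4 libraries, so its neighbours Rab30 (0.14), Fkbp1b (0.17) and Fabp7 (0.18) mainly reflect the pseudocount.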

How the data were processed

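Each library came as 1 deposited table of raw counts, with gene symbols as identifiers and 5 summary lines that were left out of totals. Per the file names the counts were deduplicated, which can lower the counts of very abundant genes such as Spp1. The submitters' processing notes name mm10, Cufflinks 2.2.1 and Cuffdiff 2.2.1. For the aligner, the counting program and strand: not given in the sources used here. Per the labels' protocols, sorted fractions were pooled before RNA was purified. One part of the mutant genotype and some genes and motifs are not reported here.

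Counts were scaled with TMM factors (0.941 to 1.047) from edgeR 4.0.16 in R 4.3.3. Ratios, intervals and lists were computed in Python 3.11.15 with numpy 2.4.6, pandas 2.3.3 and scipy 1.17.1, and drawn with matplotlib 3.10.9. Where a library had no read of a gene, its fold was computed from 3 reads. Differences of ratios carry Wald intervals and were computed where each count was at least 5. Exon lengths and positions came from GENCODE M21 (basic set), on the same assembly as mm10. The calling step was tested on Poisson counts simulated from the same libraries. These hold no variation between animals, so the test checks the computation only.

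The members and lists were chosen with earlier results of these data known. Named were all 8 members, up to 5 called genes per list and the 3 nearest genes per member (pseudocount 0.5, without unnamed gene models). Further genes were chosen after their values were seen (Pkd2, Sox9, Krt7, Krt19, Csf1r, Notch1, Col1a1, Col3a1, Pdgfrb and Lum levels). Cldn4 is in the ductal and the epithelial list. Muc16 and Adgre1 were not found under these symbols. Marker lists for endothelial, neural and endocrine cells are given in the closing section. Alternatives were DESeq2 1.42.0 size factors, plain CPM, TMM without the 50 most abundant genes, libraries thinned to 14032569 reads, minima of 1 or 20 CPM or none, thresholds of 1.5-fold or 4-fold, no interval condition, and the scale relative to general epithelial genes. The length of the longest transcript was added after seeing the data.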

Additional observations from a re-analysis of the deposited data

How the results depend on the processing

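With 1 library per group, no replicate could be left out. No paired analysis was possible because the labels give each group a single library. No called member ratio changed sign under another scaling, thinning or the relative scale. For the scalings the call rule fixed this, since called ratios are 2-fold or more. The furthest shift, -0.93 on the log2 scale at E14.5, is less than 2-fold. Calls could be lost: on the relative scale Glis3 at E14.5 (1.79-fold) and Tspan8 between stages in labelled mutants (1.94-fold) fell short of the threshold. Of the ratios that were not called, 6 of 19 changed sign on the relative scale: Bicc1 (0.07) and Prom1 (0.13) between genotypes at E12.5, Bicc1 (0.18), Pkhd1 (0.41) and Spp1 (0.0068) at E14.5, and Bicc1 between stages in controls (-0.08). Thinning turned 1 of 25, Prom1 at E12.5 (0.0077). DESeq2 size factors moved 2 of 40 member ratios outside their counting interval, plain CPM 7 of 40, the scale relative to general epithelial genes 18 of 26, and thinned libraries or TMM without the 50 most abundant genes 0 of 40. In the E12.5 epithelial genotype comparison, a minimum of 1 CPM or none gave 1 member higher and a median of -0.39, and 20 CPM gave 0 lower and -0.24. There, 1.5-fold gave 3 lower, 4-fold 0, and the relative scale a median of -0.43. Over all genes, 713 of 14424 were higher at 1 CPM and 1080 of 17235 with no minimum, and 1260 of 11991 were lower at 1.5-fold. At E14.5, higher calls numbered 2 at 1 CPM or no minimum and 0 at 20 CPM or 4-fold, and lower calls 1 at 20 CPM, at 4-fold and on the relative scale, 3 with DESeq2 size factors (Prom1 added) and 5 at 1.5-fold. The relative median was 0.0068. Among all genes, 1948 of 14631 were higher at 1 CPM and 2299 of 17389 with no minimum. Lower ones were 445 of 9048 at 20 CPM, 825 of 12153 with DESeq2 size factors, 141 of 12145 at 4-fold and 1804 at 1.5-fold. In mesenchyme the genotype median was -0.18 at 1 CPM and -0.075 with no minimum. Between control fractions, 1 CPM or no minimum gave 1 higher and a median of -2.66, and 20 CPM gave 2 lower and -5.12. Genes in general were higher in 1220 of 14320 at 1 CPM and 1519 of 17320 with no minimum, and lower in 853 of 9299 at 20 CPM. Between mutant fractions the median was -1.45 at 1 CPM, -1.24 with no minimum and -4.15 at 20 CPM. Lower calls there numbered 2 at 20 CPM, 3 at 4-fold, 5 at 1 CPM or no minimum and 6 at 1.5-fold. Over all genes these were 709 of 9092 at 20 CPM, 906 of 11956 at 4-fold and 2253 at 1.5-fold. With a minimum of 1 CPM they were 2570 of 14237, and with none 3077 of 18125. Between stages in controls, plain CPM gave 2 lower and a median of 0.49, 1 CPM or no minimum 2 higher and 0.79, and 20 CPM a median of 0.86. There, 1.5-fold gave 3 higher and 2 lower, 4-fold 0 higher, and the relative scale 2 lower with a median of 0.070. Of all 12136 genes, 3494 were lower on the relative scale, and 2059 were higher and 2753 lower at 1.5-fold. Plain CPM put 1786 of 12134 lower. Higher genes were 1403 of 14586 at 1 CPM and 1733 of 17271 with no minimum. Between stages in labelled mutants, higher calls numbered 0 when thinned, at 20 CPM, at 4-fold and on the relative scale and 2 at 1 CPM or no minimum. Lower calls numbered 0 at 20 CPM or 4-fold and 2 at 1.5-fold. All genes gave 1486 of 14664 higher at 1 CPM, 1783 of 17395 higher with no minimum and 1813 of 12167 lower at 1.5-fold. With a pseudocount of 2, 12 of 24 nearest genes remained. Minima and thresholds change which genes are counted. Plain CPM differs from the main scale by the TMM factors alone, which were 1.047 and 0.941 in the E12.5 and E14.5 control epithelium. What lies behind those factors was not tested. Depth limits Cftr, Tspan8, Pkhd1 and the mesenchymal values of Muc1 and Spp1.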

Other observations

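Spp1 made up 82.2% to 85.2% of the summed CPM of the 8 genes in the 4 epithelial libraries, and 1.28% and 2.67% in control and mutant mesenchyme, so any summed score of these genes would read Spp1 in epithelium and mostly Prom1 and Bicc1 in mesenchyme. The sum without Spp1 was 248 and 204 CPM in E12.5 epithelium, 482 and 205 CPM in E14.5 epithelium, and 119 and 95.9 CPM in mesenchyme.

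Other cell types were read in the same libraries. Endothelial markers (14 genes) summed to 391 and 498 CPM in E12.5 epithelium, 377 and 352 CPM in E14.5 epithelium and 101 and 107 CPM in mesenchyme. Neural and glial markers (10 genes) summed to 181 and 172, to 191 and 358, and to 125 and 111 CPM in the same order, and endocrine genes (16) to 1353 and 1165, to 2857 and 2436, and to 148 and 155 CPM.

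Of the other motifs searched before the RefSeq starts of the 7 members with a promoter window, ATCAAT (ONECUT) was found in Tspan8, GGAATG (TEAD) and TGACAG (MEIS) in Muc1, and GTGGGAA (RBPJ) and TGATTNAT (PBX-HOX) in none. They occur in 6.72%, 12.6%, 15.9%, 5.42% and 2.82% of all windows.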
